A study of Mus musculus with 11 samples.

Results

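The 8 genes described here encode the enzymes that make serine (*Phgdh*, *Psat1* and *Psph*), the enzymes that pass a carbon unit from serine to folate (*Shmt1*, *Shmt2*, *Mthfd1* and *Mthfd2*) and the transporter *Slc1a4*. They were chosen by name from the 25311 genes of the count matrix, and all 8 were present in it. Their counts were followed across retinal cell classes, mainly Müller glia, and across the 4 conditions of the study. Each library was the retina of a mouse at postnatal day (P) 10, and 11 mice were measured. The control mice (n = 3) received PBS, and their littermates (n = 3) received streptozotocin (STZ), which raises blood glucose in the newborn and models Phase I retinopathy of prematurity (ROP). Further STZ-treated pups, littermates of each other, were nursed by dams on a diet enriched in ω-3 (n = 2) or ω-6 (n = 3) long-chain polyunsaturated fatty acids. The diet groups were split between cages, so the cage and the diet cannot be told apart. All mice were C57BL/6J, no transgene was involved, and hyperglycemia in this model starts late, after most of the superficial vessel network has formed.

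Serine is made from a glycolytic intermediate, 3-phosphoglycerate. *Phgdh* oxidizes it at the first and committed step, *Psat1* adds the amino group from glutamate, and *Psph* removes the phosphate. *Shmt1* in the cytosol and *Shmt2* in mitochondria then split serine into glycine and a carbon unit carried by tetrahydrofolate. *Mthfd1* and *Mthfd2* oxidize or reduce that unit in the cytosol and in mitochondria, for the synthesis of purines and thymidylate and for methylation. *Slc1a4* (ASCT1) exchanges serine, alanine and other small neutral amino acids across the cell membrane. In the retina, Müller glia, which span the whole tissue, are known as the main site of serine synthesis and hand serine to neighbouring neurons and photoreceptors. *Atf4*, a transcription factor of the amino acid and stress response, is known to induce *Phgdh*, *Psat1*, *Psph*, *Shmt2* and *Mthfd2* in other cells.

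The genes lie on 7 chromosomes of GRCm38, and each is protein coding. *Phgdh* (chr3:98313170-98339990), *Psat1* (chr19:15904678-15947337), *Psph* (chr5:129765558-129787449), *Shmt2* (chr10:127517123-127522444) and *Mthfd2* (chr6:83305691-83325908) are on the minus strand. *Shmt1* (chr11:60788104-60811718) and *Slc1a4* (chr11:20302180-20332713) share chromosome 11, also on the minus strand, and *Mthfd1* (chr12:76255298-76319803) is on the plus strand. Bases upstream of the start that hold no annotated exon are shown for 3 genes that were highest in Müller glia. For *Phgdh* 229 bases are shown, which end where the annotated gene begins and short of the RefSeq start. A second CCAAT of *Phgdh*, at chr3:98339988-98339992, runs over that end and is not in capitals. They were taken from the RefSeq promoter table (GRCm38.p6) and are written 5′ to 3′ on the strand of the gene. RefSeq lists 2 starts for *Psat1*, and the one shown, the further upstream, lies inside the annotated gene given above. Capitals mark CCAAT, the core of the CCAAT box, which nuclear factor Y binds.
Phgdh upstream (chr3:98339991-98340219): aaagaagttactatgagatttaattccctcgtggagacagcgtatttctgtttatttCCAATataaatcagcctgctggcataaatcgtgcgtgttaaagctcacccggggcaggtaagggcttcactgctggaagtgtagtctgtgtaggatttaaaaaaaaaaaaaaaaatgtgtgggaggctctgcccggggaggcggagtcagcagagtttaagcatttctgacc
Psat1 upstream (chr19:15925060-15925309): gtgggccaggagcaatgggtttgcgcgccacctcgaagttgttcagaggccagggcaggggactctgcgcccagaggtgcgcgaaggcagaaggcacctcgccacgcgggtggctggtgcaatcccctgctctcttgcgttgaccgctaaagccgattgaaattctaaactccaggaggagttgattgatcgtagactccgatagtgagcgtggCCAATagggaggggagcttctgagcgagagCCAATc
Shmt2 upstream (chr10:127522445-127522694): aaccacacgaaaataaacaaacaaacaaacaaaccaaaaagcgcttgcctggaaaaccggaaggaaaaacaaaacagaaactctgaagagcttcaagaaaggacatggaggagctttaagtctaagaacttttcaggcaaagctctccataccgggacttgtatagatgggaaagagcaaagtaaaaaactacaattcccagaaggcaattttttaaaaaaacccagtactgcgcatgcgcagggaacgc
All 8 genes had an entry in that table. CCAAT was searched on both strands of the 300-base windows, which run from 250 bases before the start into the gene, and was found in the windows of 7 of the 8 genes, *Shmt2* being the exception, against 37.4% of 32851 promoters. In the window of *Psph* it lay on the opposite strand, as in the site gcccgctgATTGGcttaatcc at chr5:129787297-129787301. The letters TGATGNAA, the core of the amino acid response element that *Atf4* dimers bind, were found in 1 of the 8 windows, that of *Slc1a4*, against 3.97% of promoters. This match lay over the start on the opposite strand, at chr11:20332710-20332717, with the sequence ctcctgcgTTGCATCAtctccagc. Only these windows were searched, and a match of letters is no measurement of binding.

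Counts were unique molecular identifiers (UMIs), which count captured RNA molecules. Each mouse gave between 2563064 and 6516478 UMIs in 787 to 2618 cells, of which the Müller glia held 153469 to 795876 UMIs in 43 to 268 cells. Levels are given as CPM, the UMIs of a gene per 1000000 UMIs of the class in that mouse. The fitted differences used a further scaling between libraries (TMM), which CPM and the overlap of groups did not. The cells called Müller glia contained all 10 of the Müller glia markers that were looked for, summing to between 12261 and 23627 CPM per mouse. Of 4 astrocyte markers 2 to 3 were detected per group in these cells, summing to 447 to 1023 CPM per mouse, with *Pax2* at 0 in every group and *Gfap* at 0 in the control group. Of 7 pigment epithelium markers 3 to 5 were detected, summing to 6.52 to 66.7 CPM, with *Rpe65* and *Lrat* at 0 in every group, and of 7 endothelial markers 4 to 5, summing to 1194 to 2744 CPM, with *Cdh5* at 0 in every group. The control libraries stood apart from the rest. In Müller glia, 9 rod markers summed to 91.2 to 455 CPM in control mice and to 997 to 2422 CPM in Phase I ROP mice, and 10 genes known to respond to tissue dissociation summed to 456 to 1362 CPM and to 3268 to 6998 CPM. The sums of 9 cone markers (11.6 to 39.1 and 114 to 407 CPM), 10 bipolar markers (23.3 to 61.3 and 77.2 to 310 CPM), the endothelial markers (1194 to 1368 and 1962 to 2744 CPM) and the pigment epithelium markers (6.52 to 11.6 and 12.4 to 66.7 CPM) were also higher in Phase I ROP Müller glia, without overlap. These differences go with every Phase I ROP vs. control comparison below. An alternative that subtracted free RNA, scaled by the rod markers, is given with the other alternatives below. Their part in the results was otherwise not tested. Across the libraries, 1157 cell barcodes occurred in more than 1 library.

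The 3 serine synthesis genes and *Shmt2* were highest in Müller glia in each of the 11 mice, when the 5 large classes (Müller glia, amacrine, bipolar, rod and cone cells) were compared. Levels across classes are a description, and no test was made of them. *Phgdh* averaged 22.4 CPM in Müller glia (range 11.8 to 35.8) and 1.78 CPM in amacrine cells, the next class, a 12.6-fold difference. Cones, rods and bipolar cells averaged 0.93, 0.83 and 0.29 CPM, and their ranges overlapped with each other and with that of amacrine cells. *Psat1* averaged 129 CPM in Müller glia (82.5 to 178), 4.52-fold over amacrine cells at 28.5 CPM. Amacrine cells were in turn above bipolar cells (11.6 CPM) in 11 of 11 mice and did not overlap with them. *Psph* averaged 122 CPM in Müller glia (73.7 to 182), 4.25-fold over rods at 28.7 CPM, and the ranges of rods and bipolar cells (25.8 CPM) overlapped. *Shmt2* averaged 79.0 CPM in Müller glia (52.1 to 109), 2.76-fold over rods at 28.6 CPM. The Müller glia ranges of these 4 genes did not overlap with those of the next class.

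*Slc1a4* averaged 24.4 CPM in Müller glia (6.60 to 39.1) and 11.3 CPM in amacrine cells, and Müller glia were the highest class in 10 of 11 mice. The 2 ranges overlapped. The other 3 genes did not lead in Müller glia. *Shmt1*, the cytosolic enzyme, averaged 13.3 CPM in bipolar cells, 12.6 CPM in Müller glia and 9.82 CPM in amacrine cells, with overlapping ranges. *Mthfd2* was highest in amacrine cells in 8 mice, at a mean of 16.9 CPM against 9.55 CPM in Müller glia, again with overlap. *Mthfd1* averaged between 7.75 CPM in amacrine cells and 16.5 CPM in cones, and neighbouring classes in that order overlapped throughout. Thus the mitochondrial hydroxymethyltransferase *Shmt2* led in Müller glia, and its cytosolic counterpart *Shmt1* did not.

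**Figure D1:**
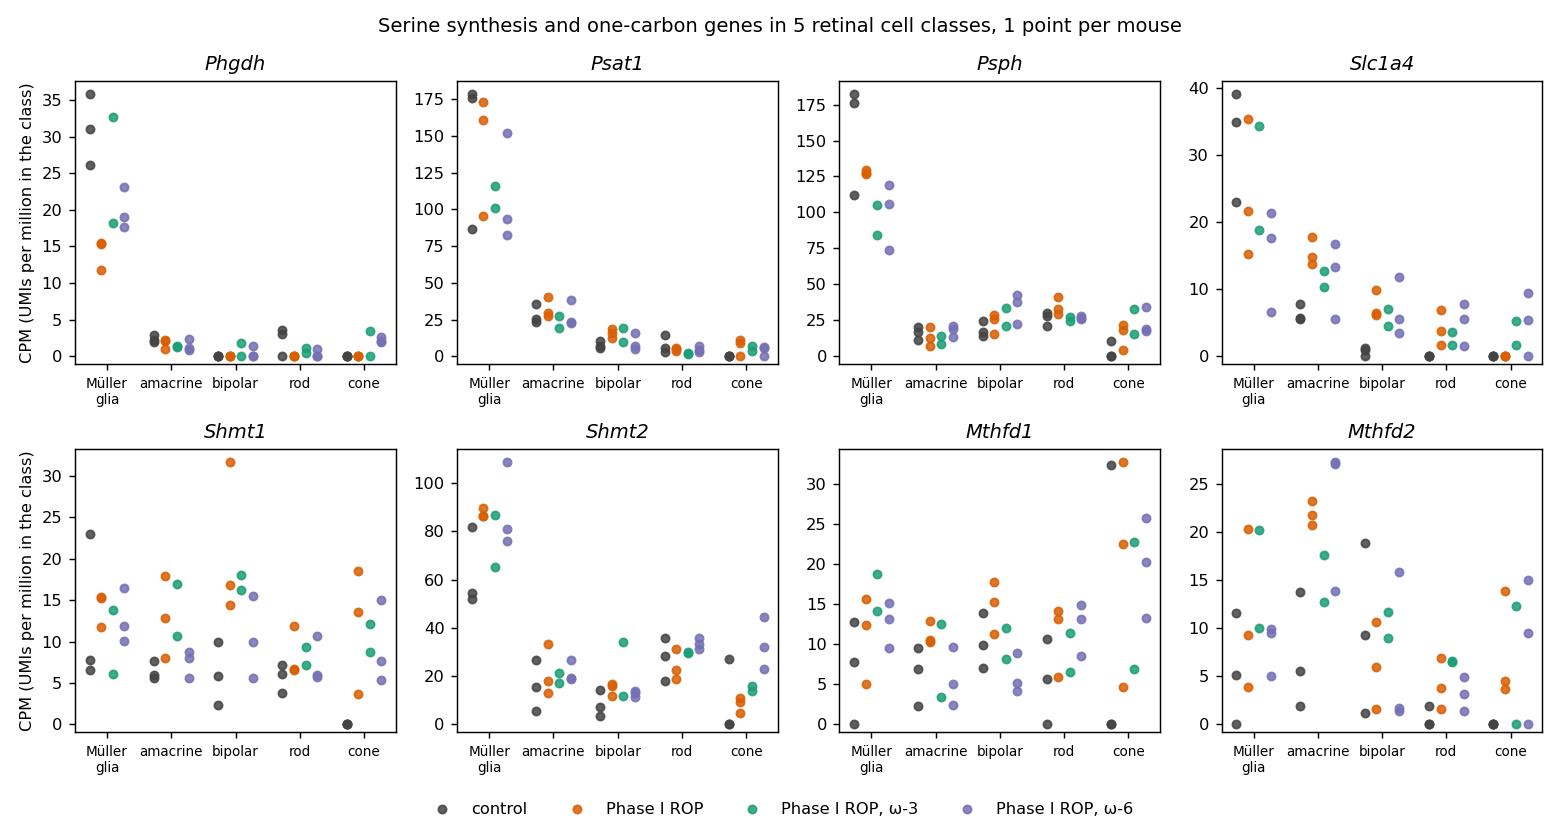
CPM (y axis, 1 panel per gene) in 5 retinal cell classes (x axis), with 1 point per mouse coloured by group. *Phgdh*, *Psat1*, *Psph* and *Shmt2* were highest in Müller glia in 11 of 11 mice, whereas *Shmt1*, *Mthfd1* and *Mthfd2* spread over the classes.

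Müller glia held 8.70% of all UMIs, and a larger share of the UMIs of these genes. They held 50.8% of the *Phgdh* UMIs (94 of 185), 43.6% of *Psat1* (481 of 1104), 31.7% of *Psph* (446 of 1406), 25.6% of *Shmt2* (317 of 1237) and 21.4% of *Slc1a4* (93 of 435). The shares of *Shmt1* (11.3%), *Mthfd1* (10.6%) and *Mthfd2* (8.79%) lay closer to the share of all UMIs. *Phgdh* was seen in 6.09% of 1445 Müller glia (median 2085 UMIs per cell) and in 0.071% of 9865 rods (median 1060 UMIs). After each cell was thinned to 1000 UMIs, which left 1125 Müller glia and 5391 rods, the shares were 2.40% (95% exact interval 1.59 to 3.47) and 0.0185%. On the same thinned scale *Psat1* was seen in 10.5% of Müller glia and 0.278% of rods, *Psph* in 9.07% and 2.26%, *Shmt2* in 6.49% and 2.36%, and *Slc1a4* in 2.49% and 0.297%. Without thinning these shares were 20.8% and 0.426%, 18.5% and 2.83%, 15.2% and 3.00%, and 5.05% and 0.385%. The intervals cover counting error only. The rod shares are given as the background that free RNA in the droplets and low expression leave together.

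The classes with few cells could be described only by summing the 11 mice. *Phgdh* was higher in the 75 cells named as retinal pigment epithelium, at 274 CPM (95% Poisson interval 183 to 393, 29 UMIs from 9 mice), than in Müller glia at 23.6 CPM on the same summed scale (19.1 to 28.9). Of 7 pigment epithelium markers, 5 to 6 were detected in these cells. They held 0.231% of all UMIs and 15.7% of the *Phgdh* UMIs. The study's methods state that the pigment epithelium was removed at dissection. Astrocytes (47 cells) gave 53.7 CPM of *Phgdh* (30.1 to 88.6), also above Müller glia. *Slc1a4* reached 94.1 CPM (72.5 to 120, 64 UMIs from 10 mice) in 111 endothelial cells, against 23.3 CPM in Müller glia (18.8 to 28.6), and was at 0 UMIs in the pigment epithelium, which allows up to 28.3 CPM. The cluster named endothelial also had 4 pericyte markers detected and enriched, with *Rgs5* among its leading genes. *Psat1* stood at 75.5 CPM in the pigment epithelium (32.6 to 149) and at 120.6 CPM in Müller glia (110 to 132), and *Shmt2* at 56.3 CPM in 31 horizontal cells (34.9 to 86.1) and 79.5 CPM in Müller glia. *Phgdh* and *Slc1a4* were therefore not highest in Müller glia once small classes were counted.

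**Figure D2:**
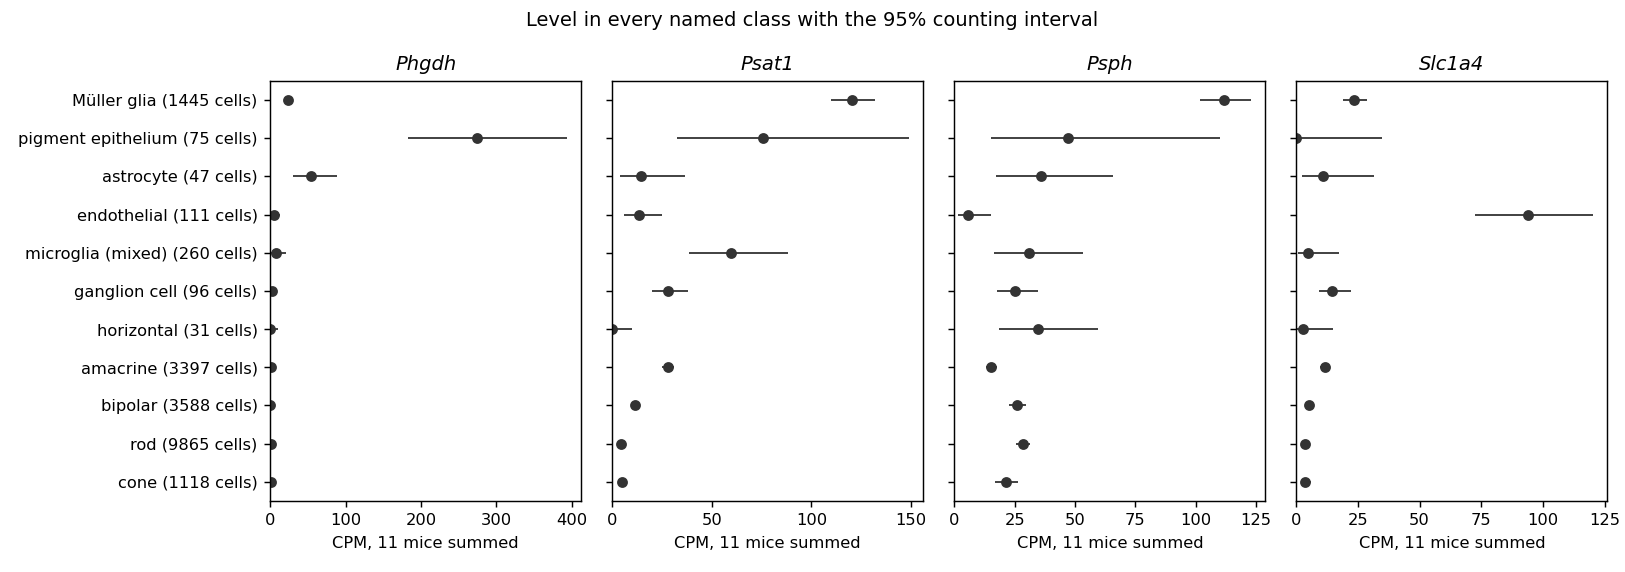
Levels of *Phgdh*, *Psat1*, *Psph* and *Slc1a4* in CPM (x axes) in every named class (y axis, with its number of cells), with the UMIs of 11 mice summed and bars for the 95% Poisson interval. *Phgdh* reached 274 CPM in the pigment epithelium cells and *Slc1a4* 94.1 CPM in endothelial cells. The class named microglia is mixed with rods, and the class named endothelial also carried pericyte markers.

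To see how the genes varied in hyperglycemia, Phase I ROP mice were compared with their control littermates, first in Müller glia. *Phgdh* stood at 31.0, 26.1 and 35.8 CPM in the control mice (8, 4 and 14 UMIs) and at 15.4, 15.3 and 11.8 CPM in the Phase I ROP mice (5, 3 and 3 UMIs). Each Phase I ROP mouse was below each control mouse, with means of 31.0 ± 4.86 and 14.2 ± 2.07 CPM (SD, n = 3 each). The ratio of pooled counts was 0.438 (95% interval 0.195 to 0.918, counting error only). *Phgdh* had too few UMIs for the low-count filter, and the exact two-sided permutation test over mice gave p = 0.1, the smallest that 3 against 3 mice can give. When the filter was removed, edgeR's quasi-likelihood test gave a log2 fold change of −1.28 ± 0.67 (SE) with an adjusted p of 0.446. The difference in *Phgdh* thus did not pass a test at this depth.

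*Psat1* stood at 178, 176 and 86.9 CPM in control Müller glia and at 95.7, 173 and 161 CPM in Phase I ROP. The groups overlapped, and the fitted difference was −0.13 ± 0.32 on the log2 scale (edgeR adjusted p = 0.83). The sign of this value turned when control mouse 1 or Phase I ROP mouse 1 was left out. *Psph* stood at 182, 176 and 112 CPM in control and at 127, 127 and 130 CPM in Phase I ROP, with a fitted difference of −0.37 ± 0.27 (adjusted p = 0.391). The Phase I ROP mice lay inside the control range. *Slc1a4* stood at 34.9, 39.1 and 23 CPM in control and at 21.6, 15.3 and 35.3 CPM in Phase I ROP, so that the groups overlapped, and it did not pass the filter.

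*Shmt2* stood at 54.3, 52.1 and 81.8 CPM in control Müller glia and at 89.6, 86.5 and 86.3 CPM in Phase I ROP. All Phase I ROP mice were above all control mice, and the fitted difference was 0.32 ± 0.33 (adjusted p = 0.566), no larger than its standard error. *Shmt1* stood at 7.75, 6.52 and 23 CPM in control and at 15.4, 15.3 and 11.8 CPM in Phase I ROP. *Mthfd1* averaged 6.84 ± 6.44 and 11.05 ± 5.42 CPM, and *Mthfd2* 5.58 ± 5.83 and 11.2 ± 8.39 CPM. For these 3 genes the groups overlapped and at most 12 UMIs stood behind a group. None of the 3 passed the low-count filter, so a difference could have been missed at this depth.

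**Figure D3:**
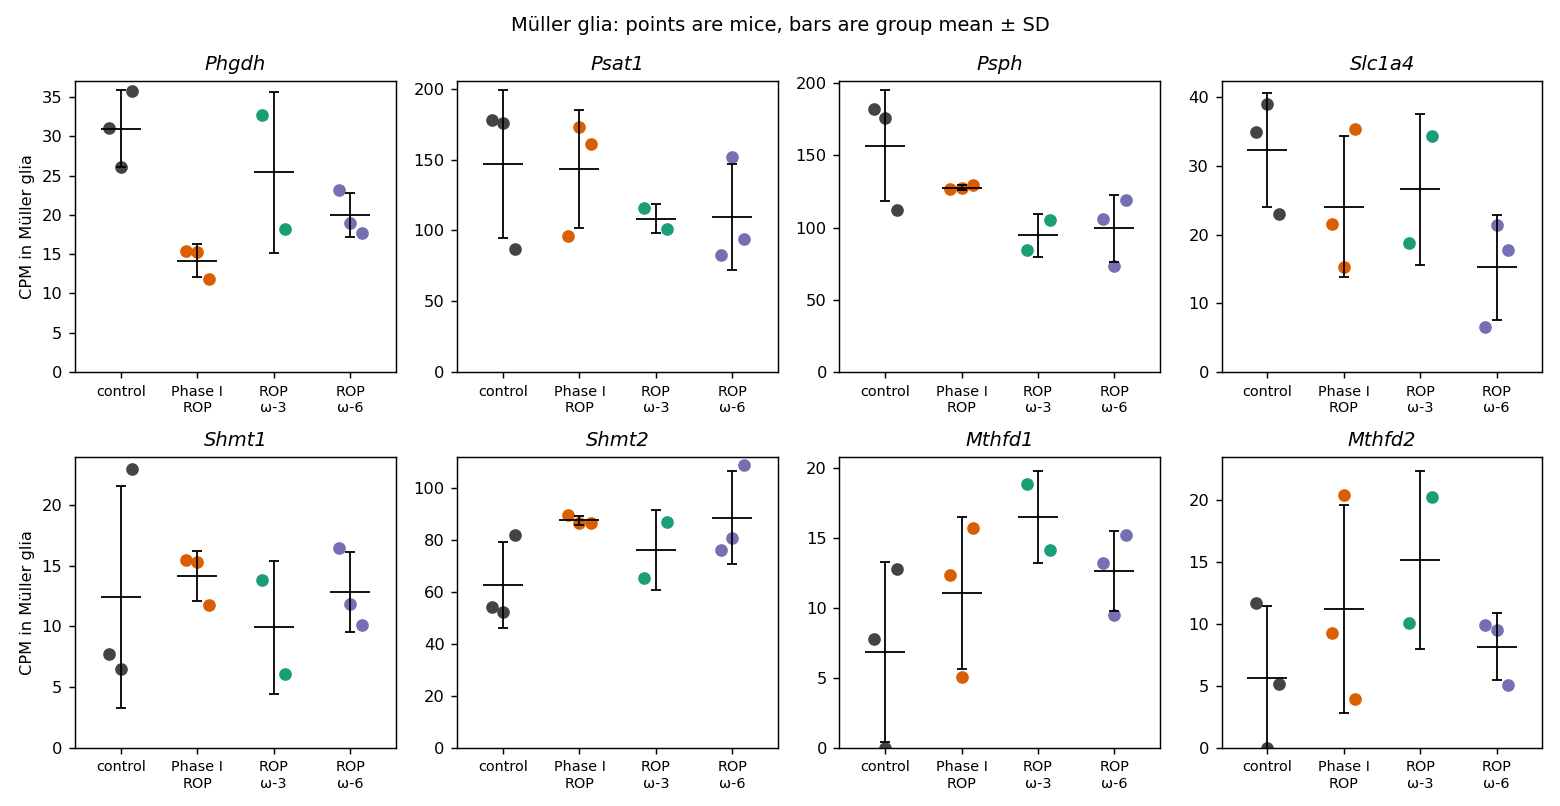
CPM in Müller glia (y axis, 1 panel per gene) in the 4 groups (x axis). Points are mice and bars are the group mean ± SD. *Phgdh* of the Phase I ROP mice, 11.8 to 15.4 CPM, lay below that of the control mice, 26.1 to 35.8 CPM, and the mice on the diets lay between 17.7 and 32.7 CPM.

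In Müller glia none of the 3 genes that passed the filter was called by edgeR, against 11.6% of the 4954 genes tested. The median log2 change of these 3 genes was −0.13, and that of all tested genes was 0.01. Of the 6 genes with at least 20 UMIs in the 2 groups, *Phgdh* and *Shmt2* had groups of mice that did not overlap. Among all such genes the share was 25.5%.

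Outside Müller glia, 2 of the 8 genes changed in a class of neurons. *Shmt1* rose in bipolar cells, from 5.79, 2.36 and 9.96 CPM in control mice to 14.4, 31.7 and 16.8 CPM in Phase I ROP mice. The groups did not overlap, and the log2 fold change was 1.30 ± 0.50 (edgeR adjusted p = 0.0441). *Mthfd2* rose in amacrine cells, the class in which it was highest, from 13.8, 1.90 and 5.57 CPM to 23.3, 21.8 and 20.8 CPM. These groups did not overlap either, and the log2 fold change was 1.27 ± 0.48 (adjusted p = 0.0489). Both values lie close to the threshold, and each was lost with DESeq2, at an adjusted p of 0.118 for *Shmt1* and 0.0909 for *Mthfd2*, and when any of 5 of the 6 mice was left out. Without control mouse 2 the changes were 0.91 (adjusted p = 0.177) and 0.79 (adjusted p = 0.183), and without control mouse 1 *Mthfd2* stood at 2.19. Leaving out control mouse 3 moved that of *Shmt1* to 1.86. *Mthfd2* was also not called when only clusters with a class marker among their leading genes were kept. This left 93 to 115 of the 227 to 277 amacrine cells per control mouse. In Phase I ROP mice it left 122 to 147 of 268 to 369. The bipolar cells were the same in that setting. Rod markers summed to 706 to 1301 CPM in bipolar cells of control mice and to 1405 to 2410 CPM in those of Phase I ROP mice, and to 210 to 300 CPM and 901 to 1256 CPM in amacrine cells. The dissociation genes summed to 96.1 to 136 CPM and 666 to 786 CPM in bipolar cells and to 129 to 206 CPM and 1964 to 2855 CPM in amacrine cells. Müller glia markers did not overlap either, at 167 to 250 CPM and 263 to 308 CPM in bipolar cells and at 439 to 472 CPM and 518 to 666 CPM in amacrine cells. Nor did amacrine, astrocyte and pigment epithelium markers in bipolar cells, or bipolar, cone, ganglion cell, endothelial, microglia and pigment epithelium markers in amacrine cells, all of them higher in Phase I ROP, or the markers of dividing cells, which were lower in both classes. Fewer combinations of gene and class were called when free RNA, scaled by the rod markers, was subtracted. The same was true under several alternatives that subtracted no free RNA, given below. The part of the other markers and of the dissociation genes was not tested.

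Over all genes tested, 45.6% were called in bipolar cells and 38.8% in amacrine cells, against 1 of 4 and 1 of 6 of the genes described here. The share of these genes that changed was thus no larger than that of genes at large. The genes at large were not matched to these for UMIs, and the part of depth was not tested. In amacrine cells *Slc1a4* stood at 7.87, 5.70 and 5.57 CPM in control and at 14.8, 13.8 and 17.8 CPM in Phase I ROP, without overlap and with a log2 difference of 0.92 ± 0.40 that missed the threshold (adjusted p = 0.0816). The groups also did not overlap for *Mthfd1* and *Shmt1* in amacrine cells. That made 4 of the 7 genes with at least 20 UMIs there, against 46.6% of all such genes, and 2 of 6 in bipolar cells (*Shmt1* and *Psat1*), against 50.3%. Each of them was higher in Phase I ROP in CPM, which lack the TMM scaling of the fits. Whether this holds after that scaling was not tested. In amacrine cells the nearest control and Phase I ROP mice were close, at 7.60 and 8.03 CPM for *Shmt1* and at 9.50 and 10.3 CPM for *Mthfd1*. *Psat1* in bipolar cells stood at 10.4, 5.89 and 6.97 CPM in control and at 12.8, 15.8 and 18.4 CPM in Phase I ROP. *Psph* in amacrine cells had a fitted difference of −0.63 ± 0.41 (adjusted p = 0.238) and overlapped.

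In rods, *Shmt2* and *Psph* passed the filter and neither was called, at −0.57 ± 0.42 (adjusted p = 0.281) and 0.07 ± 0.39 (adjusted p = 0.902), where 41.2% of all tested genes were. None of the 5 genes with at least 20 UMIs in rods had groups that did not overlap, against 48.3% of all such genes. *Slc1a4* had 0 UMIs in control rods, which allows up to 2.63 CPM over the 3 mice, and stood at 6.92, 1.64 and 3.78 CPM in Phase I ROP rods (12 UMIs). In cones none of the genes passed the filter or had 20 UMIs, since the control mice had 12 to 46 cones each. Among other genes in cones 19.3% of those tested were called, and 36.1% of those with 20 UMIs did not overlap. *Shmt1* and *Mthfd2* had 0 UMIs in control cones, which allows up to 18.01 CPM. With all cells of a mouse summed, all 8 genes were tested and none was called, against 48.1% of 15964 genes. *Shmt1* came nearest, at 5.90, 5.84 and 8.01 CPM in control and 14.8, 14.0 and 10.9 CPM in Phase I ROP, with a log2 difference of 0.73 ± 0.29 (adjusted p = 0.0576). *Phgdh* had −0.88 ± 0.45 (adjusted p = 0.12) and overlapped. In CPM, without TMM scaling, *Shmt1*, *Mthfd1* and *Slc1a4* did not overlap between the groups, 3 of 8 genes, where 50.8% of all genes did not. The nearest control and Phase I ROP mice for *Mthfd1* stood at 9.20 and 10.6 CPM.

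Whether the change in Müller glia differed from that in another class was tested as an interaction, in which 0 of 18 combinations of gene and class were called. The background was 5.67% of genes against rods, 1.12% against cones, 3.19% against bipolar cells and 0.597% against amacrine cells. *Slc1a4* had the lowest p-values. Its change in Müller glia minus that in bipolar cells was −3.11 ± 1.22 (edgeR adjusted p = 0.213), and minus that in amacrine cells −1.58 ± 0.80 (adjusted p = 0.512). In bipolar cells *Slc1a4* rested on 2 UMIs in control mice. For *Phgdh* the neurons had too few UMIs for the difference to be estimated with any precision.

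**Figure D4:**
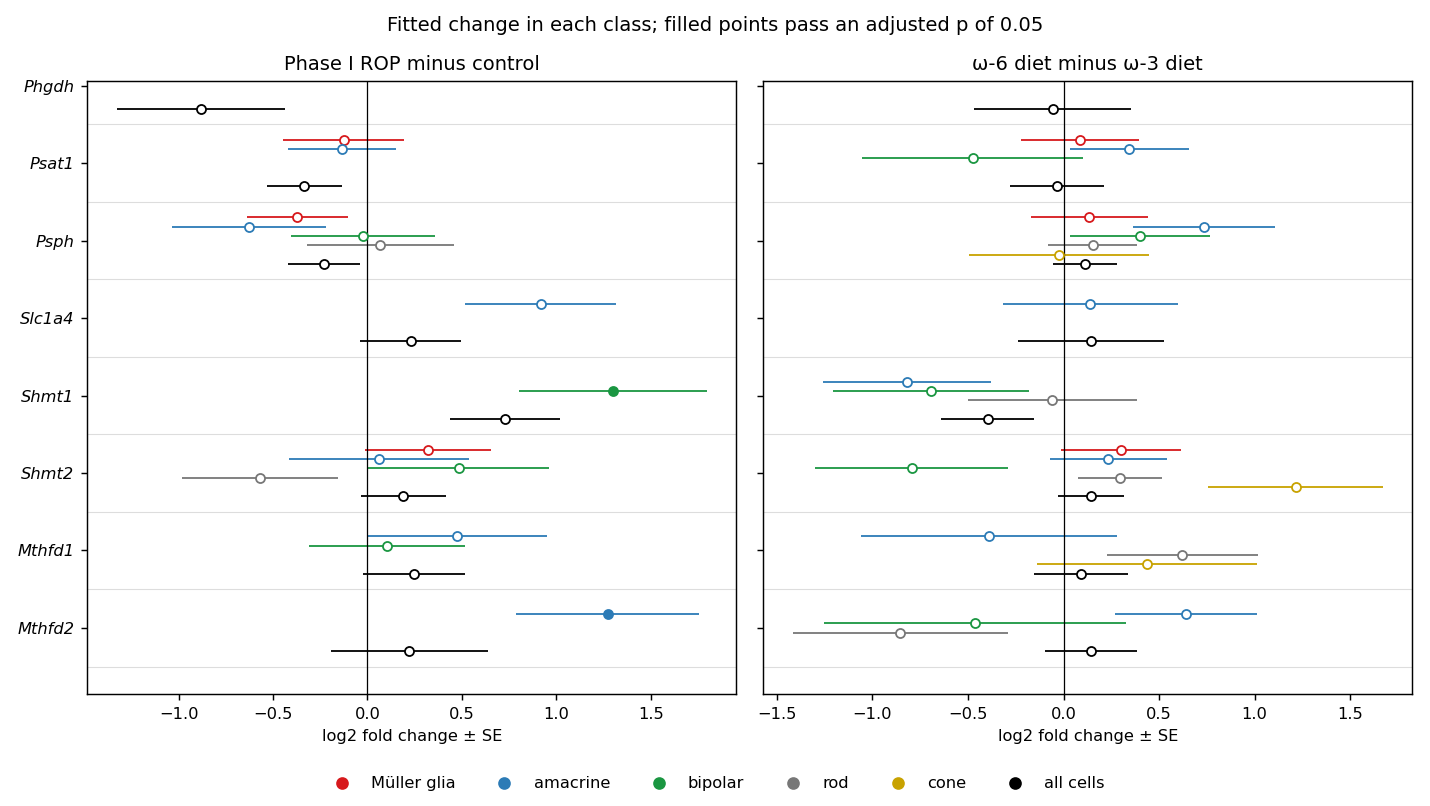
Fitted log2 fold change ± SE (x axes) of each gene that passed the low-count filter (y axis), by class (colour), for Phase I ROP minus control (left) and the ω-6 diet minus the ω-3 diet (right). Filled points, *Shmt1* in bipolar cells and *Mthfd2* in amacrine cells on the left, had an edgeR adjusted p under 0.05.

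Other genes of the pathway were followed in Müller glia of Phase I ROP vs. control mice as lists written from gene function, where 11.6% of all tested genes were called. Of 18 genes of the folate cycle 3 were tested and none was called, and of 6 genes of purine synthesis and 11 of lipid synthesis from serine, 1 and 5 were tested and none was called. Among the serine, glycine and neutral amino acid carriers, 1 of 3 tested rose. This was *Slc38a2* (SNAT2), a sodium-coupled carrier of small neutral amino acids, at 34.9, 52.1 and 23 CPM in control and 173, 183 and 141 CPM in Phase I ROP (log2 fold change 2.18 ± 0.35, edgeR adjusted p = 0.000893). The mice did not overlap, in contrast to *Slc1a4* in the same cells. Of the glycine cleavage and breakdown genes 6 were tested. *Gldc*, the glycine decarboxylase, rose from 112, 150 and 69.0 to 191, 260 and 255 CPM (1.04 ± 0.28, adjusted p = 0.0272). *Amt*, the aminomethyltransferase of the same complex, fell from 395, 560 and 378 to 293, 326 and 259 CPM (−0.69 ± 0.20, adjusted p = 0.0353), and is named after its values were seen. These 2 of the genes of the glycine cleavage system thus moved in opposite directions, and no other tested gene of this list was called. In the methionine cycle 1 of 5 tested genes rose, *Mat2a*, which makes S-adenosylmethionine, from 190, 176 and 135 to 296, 361 and 306 CPM (0.84 ± 0.21, adjusted p = 0.0183).

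Of 18 genes for *Atf4* and its known amino acid response targets, 11 were tested in Müller glia and 3 rose, and the median log2 change of the list was 0.70. Over all 4954 genes tested in these cells 11.6% were called and the median was 0.01. *Atf4* itself stood at 112, 78.2 and 102 CPM in control and at 309, 489 and 432 CPM in Phase I ROP (1.91 ± 0.23, edgeR adjusted p = 7.03e-05). *Ddit3* (CHOP), a transcription factor of the stress response, rose from 11.6, 13.0 and 15.3 to 46.3, 102 and 118 CPM (2.52 ± 0.50, adjusted p = 0.004). *Cebpb*, a transcription factor of inflammation and stress, had 0, 0 and 2 UMIs in the control mice and stood at 318, 265 and 243 CPM in Phase I ROP. The ratio of its pooled counts was 112 (95% interval 30.7 to 934). The other 8 genes, among them the aminoacyl-tRNA synthetases *Aars*, *Gars*, *Sars* and *Nars* and the transporter subunits *Slc7a5* and *Slc3a2*, were not called, and their log2 differences ran from −0.24 to 1.29. The serine synthesis genes that were tested, *Psat1* and *Psph*, stood at −0.13 and −0.37, and *Shmt2* at 0.32. In the same cells the dissociation genes were also higher in Phase I ROP, by the values given above, and their part was not tested.

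**Figure D5:**
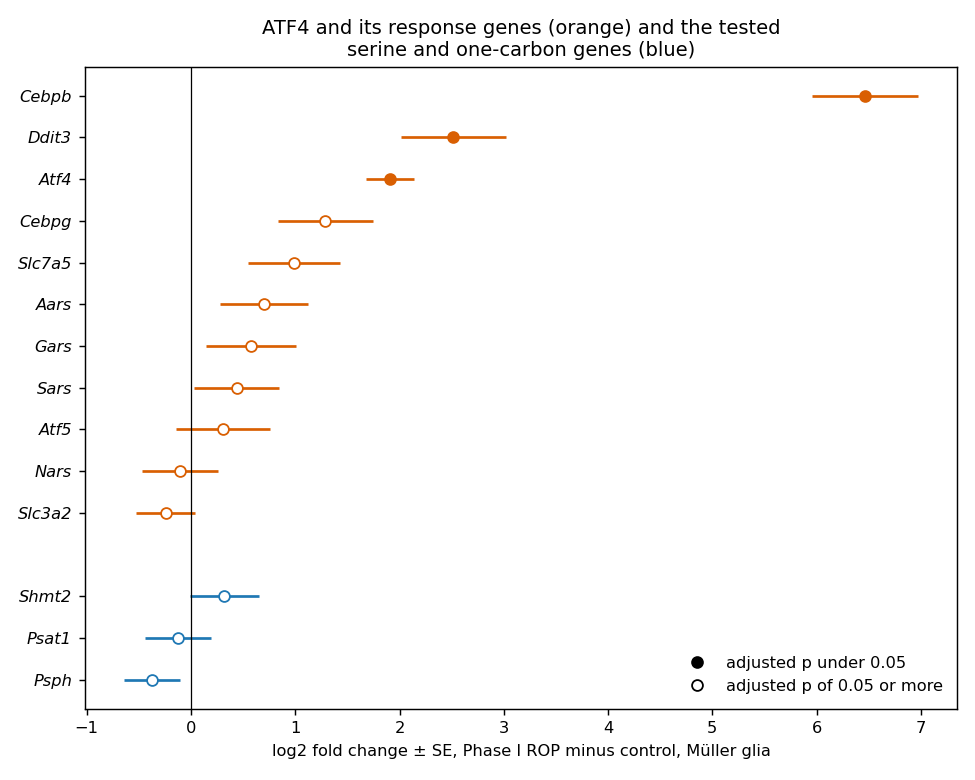
Log2 fold change ± SE (x axis) in Müller glia, Phase I ROP minus control, of the 11 tested genes of the *Atf4* list (orange) and of *Shmt2*, *Psat1* and *Psph* (blue). *Cebpb*, *Ddit3* and *Atf4* had an edgeR adjusted p under 0.05 (filled), and the fitted value of *Cebpb* rests on 2 control UMIs.

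Between the diets, the ω-6 and the ω-3 group were compared among Phase I ROP mice that share no sample with the mice above. In Müller glia *Phgdh* stood at 32.7 and 18.2 CPM on the ω-3 diet and at 23.1, 19.0 and 17.7 CPM on the ω-6 diet. *Psat1* stood at 116 and 101 CPM on ω-3 and at 82.5, 152 and 93.6 CPM on ω-6, and *Psph* at 84.2 and 105 CPM and at 106, 73.7 and 119 CPM. The groups overlapped for all 3 genes. *Shmt2* stood at 65.3 and 87.0 CPM on ω-3 and at 75.9, 80.8 and 109 CPM on ω-6, and *Slc1a4* at 18.8 and 34.4 CPM and at 6.60, 21.4 and 17.7 CPM. The fitted differences, ω-6 minus ω-3, were 0.09 ± 0.31 for *Psat1*, 0.14 ± 0.31 for *Psph* and 0.30 ± 0.31 for *Shmt2*, each with an edgeR adjusted p of 0.999. None of the 3 was larger than its standard error. *Mthfd2*, at 10.1 and 20.2 CPM on ω-3 and 9.90, 9.51 and 5.06 CPM on ω-6, was the 1 gene of the 8 whose groups did not overlap, against 19.2% of all genes with at least 20 UMIs. These values rest on 8 and 10 UMIs and on 3, 4 and 2 UMIs, and the nearest mice of the groups, at 10.1 and 9.90 CPM, almost met.

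Across all classes 0 of 31 combinations of gene and class were called between the diets by edgeR, and 1 had an unadjusted p under 0.05. DESeq2 gave an adjusted p to 12 of the 31, of which 0 were called, and none of the 31 had an unadjusted p under 0.05 by DESeq2. The 1 combination with an unadjusted edgeR p under 0.05 was *Shmt2* in cones, at 13.8 and 15.8 CPM on ω-3 and 22.8, 44.5 and 32.2 CPM on ω-6. Its log2 difference was 1.21 ± 0.46 (edgeR adjusted p = 0.596). The background was low as well, at 0.016% of genes in rods and 0.0% in every other class and over all cells. Groups of mice that did not overlap were counted beside this, among genes with at least 20 UMIs. In rods they occurred for *Psat1* and *Shmt2*, higher on ω-6, and for *Mthfd2*, higher on ω-3, 3 of 7 genes against 29.4% of all genes. In cones *Shmt2* was 1 of 4 (24.0%), and *Shmt1*, higher on ω-3, was 1 of 7 in bipolar cells (20.3%) and 1 of 7 in amacrine cells (27.9%). In Müller glia 289 of 7928 genes had an unadjusted p under 0.05. With all cells summed, *Shmt1* stood at 12.7 and 10.6 CPM on ω-3 and at 7.498, 8.19 and 9.41 CPM on ω-6, without overlap, where 26.1% of all genes did not overlap, and with a difference of −0.40 ± 0.24 (adjusted p = 0.712). No gene of the other pathway lists was called by edgeR between the diets in any class. The labels tie litters only within each comparison, so the values of mice on the diets and of Phase I ROP mice stand side by side here without a test.

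The members' patterns over the 5 large classes and the 11 mice (55 values, log2 CPM) were compared with those of 16876 genes. These correlations are descriptions, since the values share cell classes, libraries and depth. *Phgdh* and *Psat1* were alike at a Pearson r of 0.81, *Psat1* and *Slc1a4* at 0.789, and *Phgdh* and *Psph* at 0.749. *Mthfd1* reached no more than 0.299 with any other of the 8 genes. The genes most like *Phgdh* were *Anxa5* (r = 0.95) and *S100a10* (0.942), and those most like *Psat1* were *Rnaset2b* (0.952), whose reads can be shared with its near copy *Rnaset2a*, and *Sema5a* (0.936). *Psph* was nearest to *Pon2* (0.887) and *Sept8* (0.883), *Shmt2* to *Ech1* (0.824) and *Spry2* (0.819), and *Slc1a4* to *Lama1* (0.845) and *Rgs2* (0.845). For *Shmt1* the nearest were *Wars* (0.799) and *Appbp2* (0.78), for *Mthfd1* *Mcfd2* (0.709) and *Irf3* (0.691), and for *Mthfd2* *Fam134b* (0.708) and *Srebf2* (0.704).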

How the data were processed

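Single-cell libraries of 11 mouse retinas, dissociated with papain, were made with inDrop v3. The authors ran umis and Rapmap within bcbio-nextgen against GRCm38 transcripts, excluded cells with few reads, and deposited raw UMI counts per gene and cell for 25311 genes and 20067 cells. The submitters' processing notes name the builds mm10 and GRCm38.p6. The labels call the mice littermates within each comparison. The members and lists were chosen with earlier results of these data known.

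The 20033 cells with over 300 genes were clustered, on genes detected in over 10 cells, with Seurat 5.3.0 (2000 variable genes without the members and pathway lists, 75 components, resolution 0.2), which gave 23 clusters, named from canonical markers. The names were rebuilt here and may differ from those of the study. Scrublet (scanpy 1.11.5) marked 0.399% of cells as doublets, too few for the caller to have worked, so no cell was removed in the results reported and an alternative left out the 5% with the highest scores in each mouse.

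UMIs were summed per mouse and class (at least 10 cells per mouse). The 2 groups of a comparison were tested with edgeR 4.0.16 in R 4.3.3 (quasi-likelihood, TMM, default low-count filter, Benjamini-Hochberg adjusted p under 0.05), fitted on all genes of the class, and the test was checked on simulated data. Groups were said not to overlap in CPM without TMM scaling, over genes with at least 20 UMIs. Intervals are at 95%, and 0 UMIs was read as up to 3 counts over a group or class. As alternatives, the fit was repeated with DESeq2 1.42.0, with median-of-ratios scaling, without the filter, with the replicate number as a block, with the 4 groups fitted together, each mouse left out, cells with more than 500 genes, no likely doublets, classes by marker score, clusters with a leading marker, members kept for clustering, thinned sums and subtraction of free RNA. Genes other than the 8 were named where a list gene passed the test in Müller glia or over all cells (at most 4 per list and comparison, largest changes without overlap), where they ranked among the 2 most similar to a member (prior count 2, at least 100 UMIs), or as markers. Positions of the members, 8 of 8 matched, are those of the M21 annotation of GRCm38.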

Additional observations from a re-analysis of the deposited data

Results flagged for a closer look

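Among the pathway genes named in Müller glia, 2 had a change in Phase I ROP vs. control that differed from that in another class by an interaction term. The change of *Mat2a* was smaller in Müller glia than in cones, by −1.39 ± 0.34 on the log2 scale (edgeR adjusted p = 0.00841), and control cones held 12 to 46 cells per mouse. The change of *Cebpb* was larger in Müller glia than in bipolar cells, at a fitted 5.47 ± 1.53 (edgeR adjusted p = 0.0497), which rests on 2 UMIs in control Müller glia and on few in bipolar cells, so the fitted size is no bound. None of the 8 serine and one-carbon genes passed such a test. The groups of 2 or 3 mice were too small to look for outlying mice.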

How the results depend on the processing

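Of the 23 combinations of gene and class tested for Phase I ROP vs. control, 2 were called. The number was 0 with DESeq2, 1 with median-of-ratios scaling, 1 without likely doublets, 0 with classes by marker score, 1 with clusters that have a leading marker only, 0 with sums thinned to equal depth and 1 with free RNA subtracted, and ran from 0 to 2 when each mouse was left out in turn. Some of these settings tested fewer combinations, down to 8. Whether mice of the same number were pairs was not settled. Correlations in control and Phase I ROP Müller glia were 0.0652, 0.0827 and 0.261 for same-numbered mice. For mice of different number they ran from −0.184 to 0.107. With the replicate block the number called was 1, and no call was gained. Between the diets 0 were called under each alternative, DESeq2 having given an adjusted p to 12 of 31 combinations. For the interaction 0 were called with median-of-ratios scaling, without the filter, with each mouse left out, without likely doublets, with classes by marker score and with clusters that have a leading marker only, and the other alternatives were not run. The 4 genes highest in Müller glia in 11 of 11 mice were so under each alternative. The sign of *Psat1* in Müller glia turned without Phase I ROP replicate 1 or control replicate 1, over a range of −0.467 to 0.0798 as mice were left out, and between the diets without ω-6 replicate 2, over −0.241 to 0.25. That of *Psph* between the diets turned with the replicate block (−0.0374), and without ω-3 replicate 1 or ω-6 replicate 3, over −0.0401 to 0.318. The cause was not tested. The log2 ratio of the *Phgdh* means in Müller glia ran from −1.58 to −1.01 over its alternatives. Depth limits these results: a group held 11 to 26 UMIs of *Phgdh* in Müller glia of control and Phase I ROP mice.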

Other observations

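With all cells of a mouse summed, more pathway genes passed the filter than in Müller glia, and Phase I ROP vs. control had a background of 48.1% of genes called. Of 8 carriers tested, 5 rose and none fell. *Slc38a2* went from 49.8, 43.6 and 57.9 CPM in control to 259, 218 and 174 CPM in Phase I ROP (log2 fold change 1.84 ± 0.18, edgeR adjusted p = 1.8e-05). *Slc7a10* (Asc-1), a carrier of glycine, serine and D-serine, went from 9.58, 10.1 and 8.31 to 23.9, 24.6 and 27.0 CPM (1.17 ± 0.21, adjusted p = 0.000923). *Slc6a9* (GlyT1), a glycine carrier, went from 53.4, 56.1 and 38.3 to 121, 137 and 96.1 CPM (1.00 ± 0.17, adjusted p = 0.000677). Of 15 folate cycle genes, 4 rose and 1 fell. The mitochondrial folate carrier *Slc25a32* rose from 6.63, 17.5 and 9.79 to 36.3, 37.1 and 45.9 CPM (1.56 ± 0.28, adjusted p = 0.000856), and *Mthfd2l*, a mitochondrial relative of *Mthfd2*, fell from 47.2, 49.5 and 42.1 to 37.5, 26.5 and 35.3 CPM (−0.73 ± 0.18, adjusted p = 0.0052).

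Of 9 genes of glycine cleavage and breakdown over all cells, 1 rose (*Gldc*, 1.46 ± 0.21, adjusted p = 0.000222) and 4 fell, *Dld* from 156, 183 and 134 to 110, 98.7 and 87.2 CPM (−0.93 ± 0.15, adjusted p = 0.00038) among them. Of 9 methionine cycle genes 4 rose and 1 fell, and *Mat2a* went from 143, 127 and 163 to 521, 544 and 507 CPM (1.59 ± 0.13, adjusted p = 6.05e-06). Of 9 genes of lipid synthesis from serine 5 rose, with *Serinc5*, named for the incorporation of serine into membrane lipids, at 1.16 ± 0.18 (adjusted p = 0.000335), and of 6 purine genes 1 fell. Of 17 genes of the *Atf4* list 7 rose and 5 fell. Sums over all cells also follow the shares of the cell classes, with 215 to 512 rods per control mouse and 642 to 1251 per Phase I ROP mouse, and that part was not tested.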
